A study of Sus scrofa with 22 samples.

Results

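The inner cell mass of the pig blastocyst was described here from 66 of the 1647 cells of the series, 34 cells of the group preICM_E5 at embryonic day 5 (E5) and 32 cells of the group ICM_E6 at E6. A cell belonged to a group where its weight passed 0.5 of the largest weight when the group's deposited mean profile was fitted by least squares on the values of all cells. A lower limit on the weight gave the same 34 and 32 cells. Recomputed from these cells, 99.9% of the deposited means of each group were matched within 0.001.

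The series measured polyadenylated RNA of single cells by a barcoded form of Smart-seq2, in pig embryos from E0 to E14 and in stem cell lines derived from E10 epiblast. The embryos gave 1458 cells in 20 libraries, which the authors sorted into 37 groups, each named for a stage or for a lineage with its day. No genotype, treatment or agent is named in the labels for these embryos, and the breed, the number of embryos and the animals behind a library are not given in the sources used here. The inner cell mass groups were set beside Morula_E4 (30 cells), the trophectoderm (TE) groups preTE_E5 (60 cells) and TE_E6 (75 cells), Epiblast_E7 (35 cells) and Hypoblast_E7 (73 cells). How the authors told the lineages of a day apart is also not given, so genes that differ between lineages of 1 day may have been used to name them. Such differences are given below as descriptions.

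The inner cell mass is the group of cells inside the blastocyst, and the trophectoderm is the epithelium that surrounds it and later forms the fetal part of the placenta. The inner cell mass gives rise to the epiblast, which founds the embryo proper and is marked by SOX2 and NANOG, and to the hypoblast, which lines the yolk sac and is marked by GATA6, PDGFRA, GATA4 and SOX17. In pig embryos, signalling through JAK and STAT3 downstream of interleukin 6 type cytokines is a known support of the early inner cell mass, while FGF signalling favours hypoblast over epiblast.

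All 34 cells of preICM_E5 came from library P2, and ICM_E6 came from P14 (18 cells) and P15 (14 cells). Stage and library therefore cannot be told apart between E5 and E6, nor between E6 and E7, whose groups came from P8 and P9. Inside a library, preICM_E5 could be compared with preTE_E5 in P2 (29 cells), and ICM_E6 with TE_E6 in P14 (57 cells) and P15 (18 cells). Counts summed over cells were 7626533 in preICM_E5, 5613722 in ICM_E6 of P14 and 2228218 in ICM_E6 of P15, so the values of P15 are the least precise. The median cell had 241589 counts and 9302 detected genes in preICM_E5, and 260658 counts and 7252 genes in ICM_E6. Over all cells 96 different cell barcodes were in use. P2 and P14 shared 58 of them, P2 and P15 shared 55, and P14 and P15 shared 70, of 69, 83 and 80 cells. Levels below are counts scaled to a total of 1000000 (CPM), taken from the sum of each group's cells within 1 library.

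SOX2, STAT3 and KLF4 were the markers given for these cells, and at E5 only STAT3 had a clearly higher level than in every preTE_E5 library. SOX2, a transcription factor of pluripotent cells, was at 56.3 CPM in preICM_E5, at 25.5, 41.7 and 85.1 CPM in preTE_E5 of P2, P13 and P14, and at 52.2 and 97.8 CPM in ICM_E6 of P14 and P15. It was at 0.676 and 5.14 CPM in TE_E6 of the same libraries. The 2 lineages thus overlapped in SOX2 at E5 and lay far apart at E6. KLF4, a factor of naive pluripotency, was at 350 CPM in preICM_E5 and at 304 to 359 CPM in preTE_E5, again with overlap. At E6 it was at 146 and 183 CPM in the inner cell mass and at 57.1 and 72.5 CPM in the trophectoderm. STAT3, the transcription factor that LIF and interleukin 6 activate, was at 252 CPM in preICM_E5 against 103, 109 and 109 CPM in preTE_E5, and at 150 and 282 CPM in ICM_E6 against 4.92 and 3.22 CPM in TE_E6.

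In the authors' deposited group means, on a scale of log2(CPM/10 + 1), none of these genes peaked in the inner cell mass. STAT3 had its highest mean in the zygote (5.55), with preICM_E5 in 4th place (4.45) and ICM_E6 in 7th (4.06), and stood at 1.30 in Epiblast_E7 and 1.10 in Hypoblast_E7. KLF4 was highest in Morula_E4 (5.96), with preICM_E5 in 3rd place (5.11), and was 3.47 in ICM_E6. SOX2 was highest in Epiblast_E10 (4.26), and the means of preICM_E5 (2.22, in 9th place) and ICM_E6 (2.39, in 8th) differed by less than the SD over cells of either group (1.25 and 1.56). POU5F1, the pluripotency factor OCT4, had its highest mean of all 37 groups in preICM_E5, at 5.45.

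**Figure D1:**
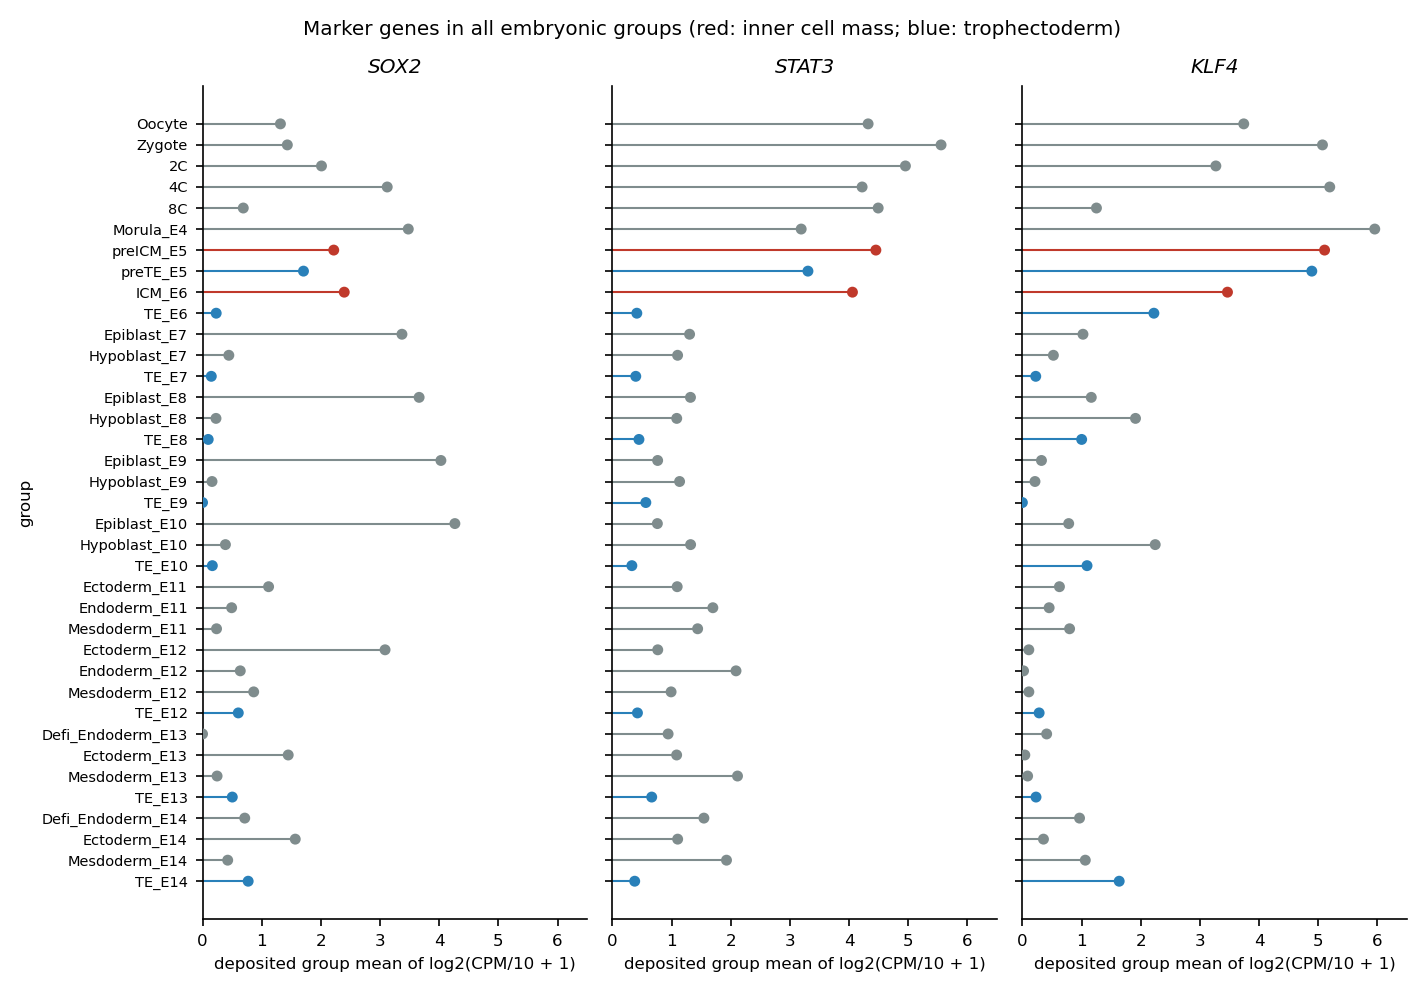
Deposited group means of SOX2, STAT3 and KLF4, as the mean over cells of log2(CPM/10 + 1) on the x axis, for the 37 embryonic groups on the y axis in order of stage (red, inner cell mass; blue, trophectoderm; grey, other groups). STAT3 stands above 3 in every group from the oocyte to ICM_E6 except TE_E6 and low in the E7 groups, KLF4 does so too except for 8C (1.25) and TE_E6 (2.22), and SOX2 stands high again from Epiblast_E7 to Epiblast_E10.

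From E5 to E6, the epiblast genes NANOG, TDGF1 and FGF4 were far higher, while POU5F1 and SOX2 were at similar levels. NANOG, a homeobox factor of the epiblast, was at 1.84 CPM in preICM_E5 and at 40.6 and 32.3 CPM in ICM_E6, a ratio of 20.8 over the pooled cells (95% counting interval 12.2 to 38.6). TDGF1, the Nodal co-receptor, was at 2.88 CPM and then 33.7 and 40.8 CPM, a ratio of 12.4 (8.01 to 20.1). FGF4, a growth factor made by epiblast cells, had no count in the 34 cells of preICM_E5 and 255 counts in ICM_E6, at 21.2 and 61.0 CPM. Against a floor of 3 counts over the group, FGF4 was at least 82.7-fold higher at E6. In all 3 genes both E6 libraries lay above the E5 library. POU5F1 was at 440 CPM in preICM_E5 and at 238 and 398 CPM in ICM_E6. OTX2, a factor of formative pluripotency, was at 363, 354 and 351 CPM in the same order. Intervals and floors cover counting error only, and no test could be made with 1 library at E5.

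Naive pluripotency genes differed among themselves in direction. NR5A2, a nuclear receptor, was at 42.0 CPM in preICM_E5 and at 1.6 and 4.04 CPM in ICM_E6, and then at 74.0 and 68.5 CPM in Epiblast_E7. KLF17 was at 50.1 CPM and then 27.6 and 11.2 CPM, while TFCP2L1 was at 27.1 CPM and then 46.5 and 35.5 CPM, and ZFP42 at 36.7 CPM and then 84.1 and 80.8 CPM. Of the 10 measured genes of the naive list, FGF4 was higher and NR5A2 lower by a fold of 4 or more, with a median difference of -0.89 on the log2(CPM + 1) scale against -0.12 over all genes. Of the 9 measured core pluripotency genes 2 were higher by that fold, NANOG and TDGF1, and none lower, with a median of -0.04.

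**Figure D2:**
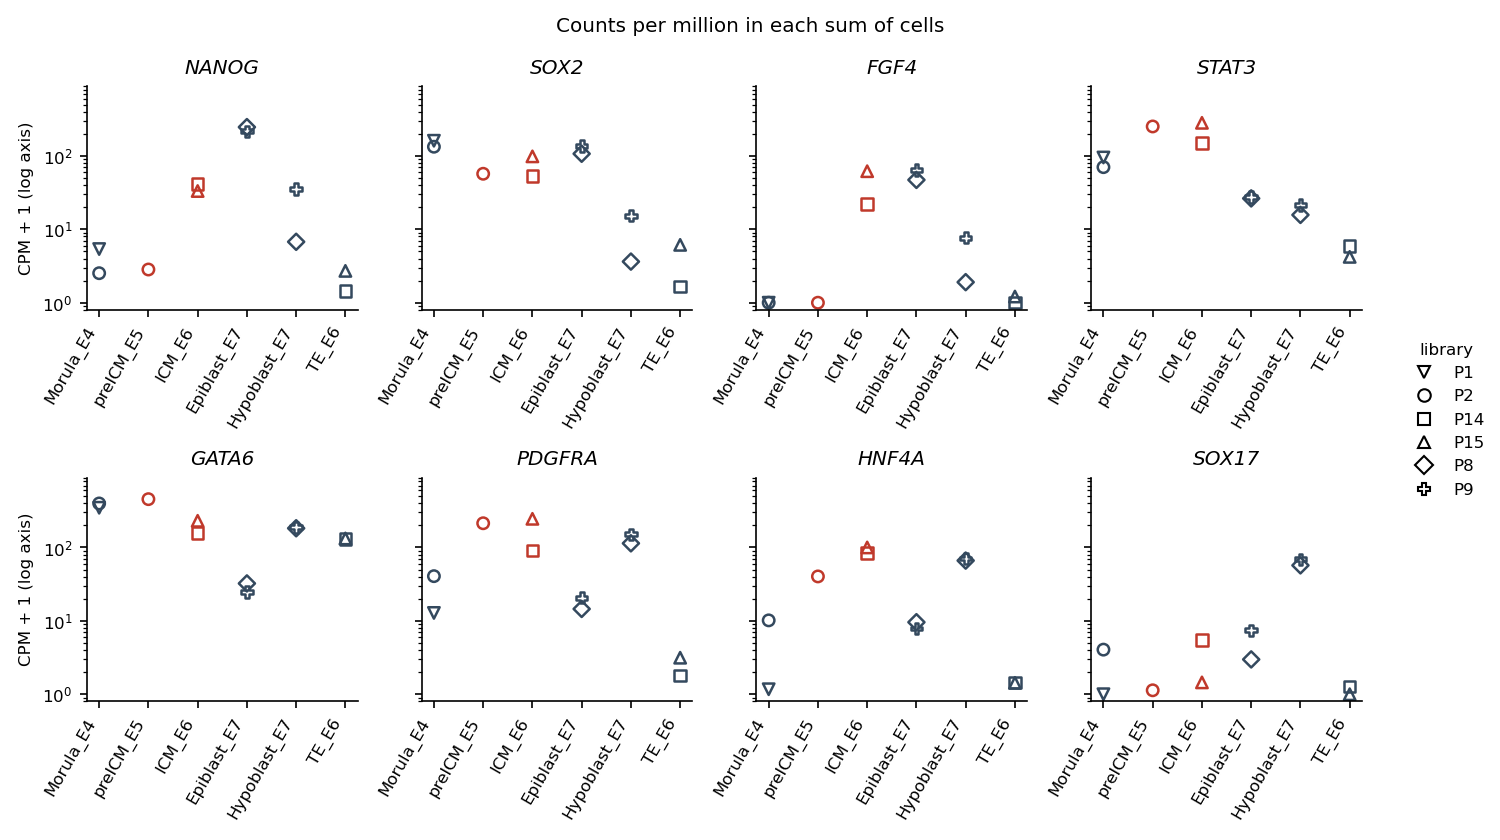
Level of 8 genes in CPM + 1 on a log axis, in each sum of cells from Morula_E4 to the E7 groups and in TE_E6 on the x axis; each symbol is 1 library and red marks the inner cell mass. NANOG and FGF4 stand higher in both libraries of ICM_E6 than in preICM_E5, STAT3 stands highest in the inner cell mass, and SOX17 is low in all 3 inner cell mass sums and near 60 CPM in Hypoblast_E7.

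Across all measured genes, 647 of 8997 (7.19%) differed by a fold of 4 or more between E5 and E6, 194 higher in ICM_E6 (2.16%) and 453 lower (5.04%). The gene lists held 13 such genes. Among the list genes measured here, that share was close to the 7.19% over all genes. The count is therefore not read as a result about the lists. Higher were NANOG, TDGF1, FGF4, APOA1, APOE, SPRY1 and HBB, and lower were NR5A2, GATA4, GRHL2, AMOT, FURIN and SLC34A2. With the size factors of DESeq2 the median difference over all genes was 0.04 in place of -0.12. The trophectoderm of E5, which was present in both P2 and P14, gives a measure of how far the libraries differ: between its cells in these libraries, 420 of 7647 genes (5.49%) differed by a fold of 4 or more, 2.38% higher and 3.11% lower in P14. Of the 13 list genes, NANOG, GATA4 and FURIN differed between those libraries in the same direction by at least 2-fold, and FURIN by more than 4-fold. For NANOG that gap was 1.22 on the log2(CPM + 1) scale, against 3.72 between E5 and E6. Only 8 cells made up preTE_E5 in P14, which limits this measure, and the part of the library in the stage difference was not tested.

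The genes with the largest stage differences were of other kinds. EPHA2, an ephrin receptor, was at 1.31 CPM in preICM_E5 and at 126 and 66.0 CPM in ICM_E6, a ratio of 83.1 (44.9 to 174). SLC7A9, a cystine transporter subunit, was at 20.3 CPM and then 576 and 579 CPM. PLA2G12B, a phospholipase relative, was at 1.18 CPM and then 66.1 and 109 CPM. In these genes both E6 libraries lay far above the E5 library. SLC7A9 also stood higher in preTE_E5 of P14 (15.2 CPM) than of P2 (6.21 CPM). Among the largest differences downward, the sodium phosphate transporter SLC34A2 was at 226 CPM and then 19.2 and 0.449 CPM, DIRAS3, a RAS family gene that is imprinted in several mammals, at 292 CPM and then 38.1 and 10.8 CPM, and EFHD1 at 70.7 CPM and then 3.21 and 0 CPM. Both E6 libraries lay below the E5 library in each. The deubiquitinase UCHL1 was far apart between the E6 libraries in both lineages. It was at 3.21 CPM in ICM_E6 of P14 and at 122 CPM in that of P15, beside 2.44 and 104 CPM in TE_E6. Of the 24 genes named by size, 5 differed between preTE_E5 of P14 and P2 in the same direction by at least 2-fold. These were UCHL1, SLC7A9, KRT20, ZNRF2 and CLCN5, and 2 of them differed by at least 4-fold. The part of the library in these stage differences was not tested.

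**Figure D3:**
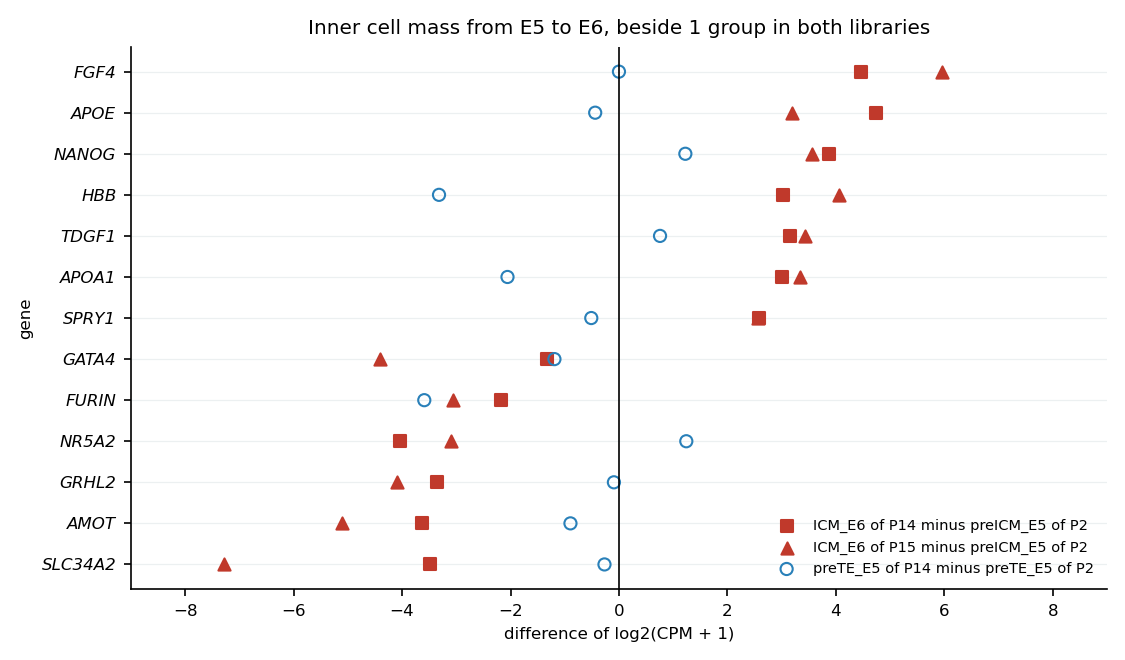
Difference of log2(CPM + 1) on the x axis for the 13 list genes with a fold of 4 or more on the y axis, for ICM_E6 of P14 and of P15 against preICM_E5 of P2 (red) and for preTE_E5 of P14 against preTE_E5 of P2 (open blue circles). Both red symbols lie on the same side of 0 for every gene, and the blue circle lies farther out than a red symbol on the same side for FURIN alone.

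Of the hypoblast list, GATA6, PDGFRA and HNF4A were already present in preICM_E5, where NANOG was at 1.84 CPM. SOX17 of the same list was at 0.131 CPM there. GATA6, the earliest factor of the hypoblast, was at 455 CPM in preICM_E5, at 432 CPM in preTE_E5 of the same library and at 348 and 398 CPM in Morula_E4. It was at 156 and 230 CPM in ICM_E6 and at 129 and 132 CPM in TE_E6. GATA6 therefore did not separate the lineages at E5, and its deposited mean in preICM_E5 (5.52) was the highest of the 37 groups. PDGFRA, a receptor tyrosine kinase of the hypoblast, did separate them: it was at 213 CPM in preICM_E5 against 18.9 to 33.1 CPM in preTE_E5, and at 90.1 and 245 CPM in ICM_E6 against 0.812 and 2.14 CPM in TE_E6. HNF4A, a nuclear receptor of endoderm, was at 39.3 CPM against 0.310 to 6.44 CPM, and then at 82.7 and 99.2 CPM against 0.451 and 0.429 CPM.

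GATA4 and SOX17, later genes of the hypoblast, were lower in both groups than in Hypoblast_E7. GATA4 was at 20.3 CPM in preICM_E5, 7.48 CPM in ICM_E6 of P14 and 0 in that of P15, against 131 and 107 CPM in Hypoblast_E7. At E5 GATA4 was also at 26.0 CPM in preTE_E5 of P2. It was detected in 45.5% of preICM_E5 cells thinned to 50000 counts. SOX17 was at 0.131, 4.45 and 0.449 CPM, against 56.1 and 68.1 CPM in Hypoblast_E7. The laminin chain LAMA1 had no count in ICM_E6. The apolipoproteins came between: APOA1 was at 56.5 CPM at E5 and at 463 and 581 CPM at E6, and APOE at 5.51 CPM and then 173 and 58.3 CPM. Of the 11 hypoblast genes measured from E5 to E6, these apolipoproteins were higher by a fold of 4 or more and GATA4 was lower. Summed over the 19 hypoblast genes, the level was 1040 CPM in preICM_E5 and 1267 and 1346 CPM in ICM_E6. It was 7235 and 6470 CPM in Hypoblast_E7 and 1878 and 1688 CPM in Epiblast_E7. In the trophectoderm the sum was 1158, 1079 and 633 CPM in preTE_E5 of P2, P13 and P14, and 943 and 1113 CPM in TE_E6. The sum thus did not separate preICM_E5 from preTE_E5. FOXA2 was at 0 in ICM_E6 of P14, and SOX17 was near 0 in preICM_E5.

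Most single cells of the inner cell mass held RNA of both SOX2 and GATA6. With each cell thinned to 50000 counts, which left 33 cells of preICM_E5 and 28 of ICM_E6, SOX2 and GATA6 were both detected in 23 of 33 cells at E5 and in 18 of 28 at E6. No cell at E5 and 3 cells at E6 had SOX2 without GATA6. In Epiblast_E7 19 of 33 cells had both and 11 had SOX2 without GATA6, and in Hypoblast_E7 12 of 72 cells had both and 59 had GATA6 without SOX2. Detection of both was thus not limited to the inner cell mass. NANOG and GATA6 were both detected in 3 of 33 cells at E5, in 8 of 28 at E6 and in 19 of 33 in Epiblast_E7. GATA6 itself was detected in 100% of the E5 cells and in 85.7% of the E6 cells (exact Clopper-Pearson interval 67.3 to 96.0%; 100% and 87.5% before thinning). It was also detected in 95.8% of TE_E6 cells, so its share does not mark the inner cell mass.

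NANOG was detected in 9.09% of preICM_E5 cells (1.92 to 24.3%), in 39.3% of ICM_E6 cells (21.5 to 59.4%) and in 93.9% of Epiblast_E7 cells. Without thinning these shares were 14.7%, 56.2% and 94.3%. In TE_E6, whose median cell had 351543 counts, the share was 2.78% (0.338 to 9.68%). The share at E5 was within counting error of that background and of the 16.7% in Morula_E4, and the share at E6 lay above the background. FGF4 was detected in 0 of 33 cells at E5, which allows a share of up to 10.6% of cells with a count at this depth and sets no limit on the share that express it, and in 25% of cells at E6, beside 1.39% of TE_E6 cells. PDGFRA was detected in 97.0% and 89.3% of cells at E5 and E6, against 70.0% in preTE_E5 and 9.72% in TE_E6. HNF4A was detected in 51.5% of cells at E5 and 89.3% at E6, and in 1.39% of TE_E6 cells. CDX2, a trophectoderm factor, was detected in 0 and 10.7% of cells.

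At E5 GATA6 was uniform, and at E6 it varied from cell to cell. Its lowest, median and highest values over cells were 229, 457 and 707 CPM in preICM_E5, 0, 109 and 439 CPM in ICM_E6 of P14, and 0, 147 and 1042 CPM in ICM_E6 of P15. In P14 the 12 cells with a NANOG count had a median of 98.2 CPM of GATA6, and the 6 cells without one had 195 CPM. In P15 the 6 cells with a NANOG count had a median of 80.2 CPM, and the 8 cells without one had 163 CPM. The ranges overlapped in both libraries, as 1 cell of P15 with a NANOG count had the highest GATA6 level of all. Over cells, Pearson's r between NANOG and GATA6 on the log scale was -0.51 in P14 and -0.71 in P15 (Spearman's rho -0.60 and -0.39), and -0.02 in preICM_E5. These are descriptions over cells that share a library. Counts per cell were correlated with NANOG at 0.24 and 0.46 and with GATA6 at 0.22 and -0.12 in P14 and P15. PDGFRA and NANOG had r of -0.08 and -0.13 at E6 (rho 0.07 and -0.11), and -0.69 in preICM_E5 (rho -0.55), where 5 cells had a NANOG count.

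**Figure D4:**
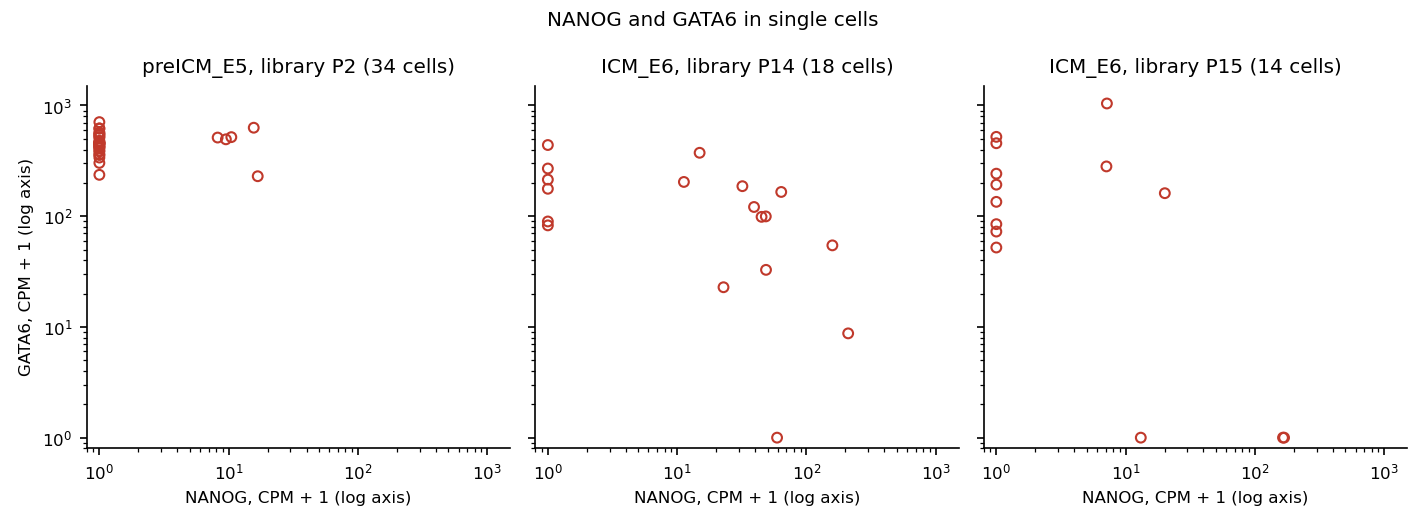
GATA6 (y axis) against NANOG (x axis) in single cells, both as CPM + 1 on log axes, for preICM_E5 of P2 (34 cells) and ICM_E6 of P14 (18 cells) and P15 (14 cells); each circle is 1 cell and a value of 1 stands for no count. The E5 cells form a tight column at high GATA6, and at E6 the cells without GATA6 counts all have NANOG counts.

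In interleukin 6 signalling, the ligand IL6 was higher in the trophectoderm, and IL6R, IL6ST, JAK2, STAT3 and BCL3 were higher in the inner cell mass. IL6, the ligand, was at 10.9 CPM in preICM_E5 against 43.7 CPM in preTE_E5 of P2, and at 8.37 and 0.898 CPM in ICM_E6 against 59.3 and 57.5 CPM in TE_E6. It was lower in the inner cell mass in all 3 libraries. IL6R, its specific receptor, was at 84.3 CPM against 16.3 CPM at E5, and at 75.9 and 210 CPM against 1.76 and 9.0 CPM at E6. IL6ST, the gp130 chain that also serves LIF, was at 190 CPM against 75.7 CPM, and at 312 and 271 CPM against 110 and 143 CPM. JAK2, the kinase bound to gp130, was at 41.8 CPM against 14.7 CPM, and at 46.8 and 43.1 CPM against 5.05 and 2.57 CPM. BCL3, a target of STAT3, was at 117 CPM against 43.3 CPM, and at 38.7 and 72.3 CPM against 2.71 and 4.50 CPM. Receptor, kinase, STAT3 and BCL3 were thus each higher in the inner cell mass inside every library. Among all groups the deposited means of IL6R (3.38) and IL6ST (4.68) were highest in ICM_E6. Other genes of the LIF and STAT3 list did not share this pattern. LIF was at 0 in all 3 inner cell mass sums and at no more than 1.96 CPM in the trophectoderm of E5 and E6, and LIFR was at 1.97, 1.96 and 0.449 CPM in the inner cell mass. PIM1, a target of STAT3, was at 49.8 against 108 CPM at E5, and at 13.7 and 26.5 against 4.06 and 16.3 CPM at E6. The feedback inhibitor SOCS3 was at 25 against 23.9 CPM at E5, and at 11 and 0 against 7.85 and 6.86 CPM at E6. JAK1 and TYK2 also stood on different sides between the E6 libraries.

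The gap in STAT3 between the lineages was wider at E6 than at E5, by 4.09 on the log2 scale. Most of that lay on the side of the trophectoderm. In P14, which held both of its stages, STAT3 was at 109 CPM in preTE_E5 and at 4.92 CPM in TE_E6, while the inner cell mass was at 252 CPM at E5 and at 150 and 282 CPM at E6. Over the 11082 genes measured in both days, 1130 (10.2%) had a lineage gap that differed by a fold of 4 or more between E6 and E5. The difference of the gaps was not tested, with 1 library at E5.

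**Figure D5:**
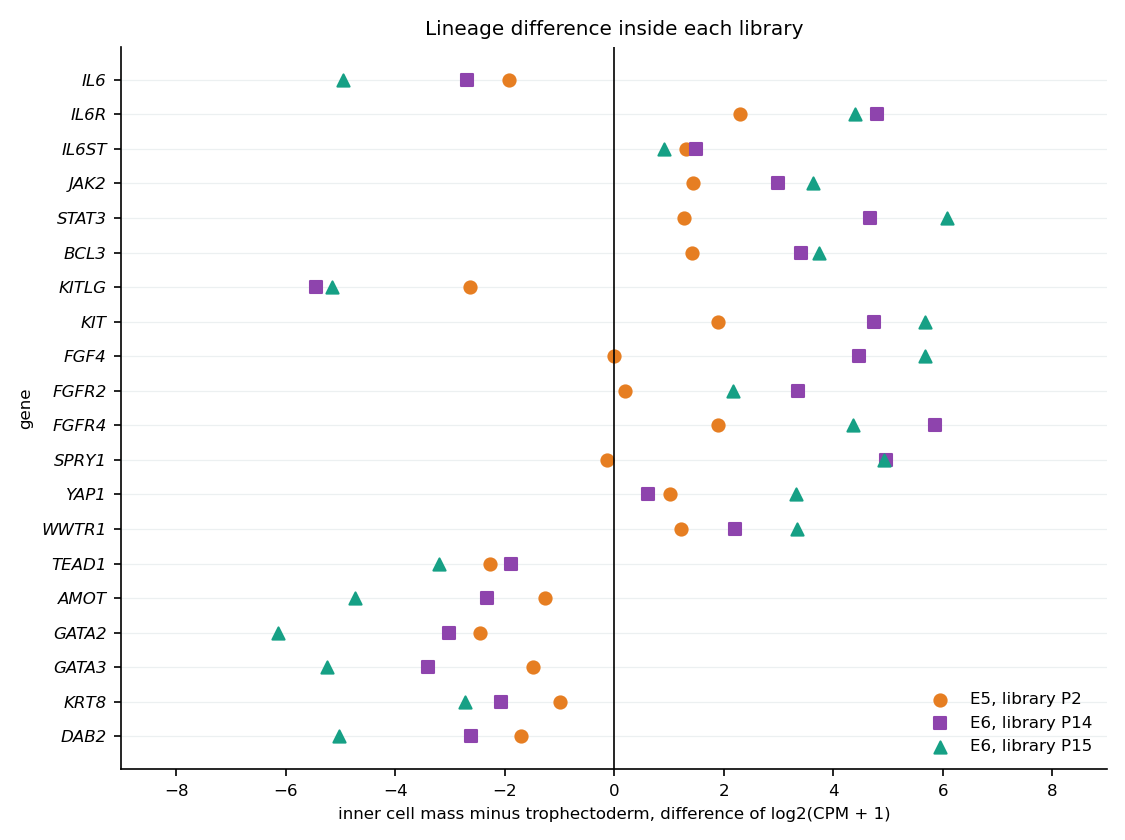
Difference between inner cell mass and trophectoderm of the same library in log2(CPM + 1) on the x axis, for 20 genes of signalling and lineage on the y axis, at E5 in P2 and at E6 in P14 and P15. IL6, KITLG, TEAD1, AMOT and the trophectoderm genes GATA2, GATA3 and KRT8 lie left of 0 in every library. IL6R, IL6ST, JAK2, STAT3, BCL3, KIT and FGFR4 lie right of 0 in every library. FGF4, FGFR2 and SPRY1 lie at or near 0 at E5 alone.

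KITLG and KIT also stood on opposite sides. KITLG, the ligand of KIT, was at 3.15 CPM in preICM_E5 and 24.6 CPM in preTE_E5 of P2, and at 0.356 and 0 CPM in ICM_E6 against 57.8 and 34.7 CPM in TE_E6. KIT was at 59.4 CPM against 15.2 CPM at E5, and at 66.1 and 71.8 CPM against 1.49 and 0.429 CPM at E6. Both genes kept their side in all 3 libraries.

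Of the FGF and ERK list, none of 11 measured genes differed between the lineages by a fold of 4 or more at E5, and at E6 3 of 12 were higher in the inner cell mass in P14 (FGFR2, FGFR4 and SPRY1) and 2 of 6 in P15 (FGFR4 and SPRY1). Over all measured genes 1.99% differed by that fold at E5 in P2, and 10.1% and 11.4% at E6 in P14 and P15. The receptor FGFR4 was at 64.0 CPM in preICM_E5 against 16.6 CPM in preTE_E5 of P2, and at 149 and 68.2 CPM in ICM_E6 against 1.58 and 2.36 CPM in TE_E6. FGFR2 was at 19.9 against 17.3 CPM at E5 in P2, with 4.50 and 3.10 CPM in preTE_E5 of P13 and P14, and at 36.3 and 28.7 against 2.66 and 5.57 CPM at E6. SPRY1, an inhibitor induced by FGF signalling, was at 14 against 15.4 CPM at E5, and at 89.2 and 88.4 against 1.89 and 1.93 CPM at E6. FGFR4 was thus higher in the inner cell mass on both days. For FGFR2 the wider gap at E6 in these libraries came with a lower level in the trophectoderm than in that of P2, and for SPRY1 with a higher level in the inner cell mass and a lower level in the trophectoderm. The ERK targets DUSP6 and ETV4, the latter from the formative list, were low. In preICM_E5 and ICM_E6 of P14 and P15, DUSP6 was at 0.393, 0.178 and 5.39 CPM and ETV4 at 0, 0 and 3.14 CPM. FGFR1 was at or below 0.898 CPM in the 3 sums.

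In the Hippo pathway, which restrains YAP1 and WWTR1 in inner cells, the RNA of these coactivators was higher in the inner cell mass. WWTR1, also called TAZ, was at 298 CPM in preICM_E5 against 128 CPM in preTE_E5 of P2, and at 193 and 295 CPM in ICM_E6 against 41.3 and 28.3 CPM in TE_E6. Its deposited mean in preICM_E5, 4.84, was the highest of all groups, above 3.33 in Hypoblast_E10. YAP1 was at 80.4 against 39.1 CPM, and at 29.7 and 74.9 against 19 and 6.65 CPM. The partner TEAD1 stood the other way, at 42.9 against 210 CPM at E5 and at 20.7 and 4.94 against 79.0 and 53.4 CPM at E6. AMOT, a junction protein that binds YAP1, was at 64.4 against 156 CPM, and at 4.28 and 0.898 against 25.3 and 49.3 CPM. RNA levels say nothing of where the proteins were.

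Of the trophectoderm list, 8 genes were lower in the inner cell mass by a fold of 4 or more in each library at E6, and 1 gene, GATA2, at E5 in P2. The factor GATA2 was at 6.69 CPM in preICM_E5 against 41.0 CPM in preTE_E5 of P2 but 1.96 and 5.26 CPM in that of P13 and P14, and at 30.5 and 2.24 CPM in ICM_E6 against 252 and 227 CPM in TE_E6. Keratin 8 (KRT8) was at 393 against 781 CPM in P2, with 256 and 370 CPM in preTE_E5 of P13 and P14, and at 763 and 401 against 3200 and 2659 CPM. The junction gene PKP2 was at 17.3 CPM against 65.0 to 93.4 CPM in the 3 preTE_E5 libraries, and at 13.7 and 1.35 against 97.8 and 89.6 CPM. Summed over the 17 trophectoderm genes, the level was 1492 CPM in preICM_E5, 2407 and 1146 CPM in ICM_E6, 8235 and 7426 CPM in TE_E6, and 2962, 1234 and 1734 CPM in preTE_E5 of P2, P13 and P14. The sum in ICM_E6 was thus higher in P14 than in P15. In P14 GATA2, GATA3 (14.8 CPM) and DAB2 (121 CPM) also stood above P15 (2.24 CPM of GATA3 and 26.5 CPM of DAB2). DAB2 belongs to the hypoblast list. Cell by cell, the highest sum in ICM_E6 was 5323 CPM in P14 and 2652 CPM in P15, and the lowest in TE_E6 was 5645 and 5454 CPM, so no cell of one group reached the range of the other. The lineage differences given above for E6 had the same direction in P14 and P15, except those of SOCS3, JAK1 and TYK2. Whether trophectoderm RNA contributes to the values of P14 was not tested.

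Counted over lists, differences of a fold of 4 or more between inner cell mass and trophectoderm took 174 of 8726 genes (1.99%) at E5 in P2. Of these 96 were higher (1.10%) and 78 lower (0.894%) in the inner cell mass. At E6 they took 969 of 9547 (10.1%; 3.51% higher and 6.64% lower) in P14 and 780 of 6826 (11.4%; 4.09% higher and 7.34% lower) in P15. At E5 the trophectoderm list had 0 of 12 measured genes higher and 1 lower (GATA2), with a median of -1.04 against 0.03 over all genes. At E6 it had 0 higher and 8 lower of 16 in P14, and 0 higher and 8 lower of 12 in P15, with medians of -2.03 and -3.31. The LIF and STAT3 list had 1 of 10 genes higher at E5 (IL6R), and 4 higher (IL6R, JAK2, STAT3 and BCL3) and 1 lower (IL6) in each library at E6, of 10 and 8. Of the hypoblast list, PDGFRA and HNF4A were higher at E5 of 9 measured, and none was lower. At E6 5 of 11 were higher in P14 and 3 of 7 in P15, and DAB2 was lower in each library. In the edgeR fit with the library as a block, which leaves 1 residual degree of freedom, 1462 of 15445 genes (9.47%) were called between ICM_E6 and TE_E6, 560 higher (3.63%) and 902 lower (5.84%). Without the block 233 were higher and 300 lower. As the lineages may have been named from these genes, nothing further is read from those calls.

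Of the 37 embryonic groups, preICM_E5 or ICM_E6 held the highest deposited mean for 656 of the 25749 genes with deposited means. The 12 with the largest gap to the next group outside the pair were SFT2D2, FAM111A, REST, WWTR1, C1QA, GSC, HBB, EPHA2, CUL1, SPIC, SERPINB10 and SLC25A43. GSC, a homeobox gene known from the organizer of gastrulating embryos, was at 160 CPM in preICM_E5 and at 122 and 197 CPM in ICM_E6, against 22.7 to 37.5 CPM in preTE_E5 and 1.26 and 0.643 CPM in TE_E6. SPIC, an ETS factor known from macrophages, was at 349, 334 and 558 CPM, against 10.2 and 8.58 CPM in TE_E6. It was also at 250 and 275 CPM in Epiblast_E7 and at 33.1 and 61.2 CPM in Hypoblast_E7. These genes had similar levels at both days of the inner cell mass.

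Others of the 12 belonged to 1 day. C1QA, a subunit of complement C1q, was at 6.82 CPM in preICM_E5 and at 240 and 245 CPM in ICM_E6, and then at 82.8 and 53.2 CPM in Hypoblast_E7 and near 6 CPM in Epiblast_E7. EPHA2 was highest in ICM_E6, with 23.8 and 22.9 CPM in Epiblast_E7. SLC25A43, a mitochondrial carrier, was at 163 CPM in preICM_E5 and at 33.8 and 22 CPM in ICM_E6. The globin gene HBB was at 5.64 CPM at E5 and at 53.1 and 109 CPM in ICM_E6, against 11.7 and 4.72 CPM in TE_E6. Over the 7 measured blood and endometrium markers the sum was 138 and 166 CPM in ICM_E6 and 48.6 to 121 CPM in the other groups from E4 to E7, with PTPRC, the leukocyte antigen CD45, at 0 in ICM_E6. Whether blood RNA contributes to HBB in ICM_E6 was not tested.

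From Morula_E4 to preICM_E5, IL6R, PDGFRA, HNF4A and OTX2 were among the genes with higher levels. Morula_E4 had 24 cells in P1 and 6 cells in P2. IL6R was at 5.23 and 15.3 CPM in these sums and at 84.3 CPM in preICM_E5. PDGFRA was at 11.8 and 39.7 CPM and then 213 CPM, and HNF4A at 0.169 and 9.16 CPM and then 39.3 CPM. In each, preICM_E5 lay above both morula libraries, and the morula cells of P2 lay between. OTX2 was at 119 and 48.1 CPM and then 363 CPM, and preTE_E5 was above the morula as well, at 163 to 289 CPM. WWTR1 was at 35.6 and 74.0 CPM and then 298 CPM. MYL9, a regulatory light chain of myosin, was at 3.71 and 17.6 CPM and then 104 CPM, although preTE_E5 of P2 had 80.5 CPM as well. KLF4 (590 and 594 CPM in the morula) and SOX2 (160 and 133 CPM) were at lower levels in preICM_E5, by 0.76 and 1.37 on the log2(CPM + 1) scale.

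Between these groups 655 of 9712 genes (6.74%) differed by a fold of 4 or more, 174 higher (1.79%) and 481 lower (4.95%) in preICM_E5. Without P1 these were 222 and 117 genes. With the size factors of DESeq2 they were 241 and 369, as the median difference over all genes moved from -0.18 to 0.06. The lists held, among 279 genes with a row, 11 that were higher: TFCP2L1, OTX2, IL6R, PDGFRA, HNF4A, FST, WWTR1, FGFR4, ID1, TET1 and AQP3. Outside the oocyte list they held as many that were lower: FZD7, LIFR, PIM1, RSPO3, SMAD7, SPRY4, ID3, TET3, PKP2, CCND2 and BCL2L1. All 10 measured oocyte genes were lower, among them BMP15 (408 and 17.6 CPM, then 5.64 CPM) and ZP3 (129 and 6.11 CPM, then 1.31 CPM). The oocyte list sum was 1525 CPM in the morula cells of P1, 117 CPM in those of P2, 26.9 CPM in preICM_E5 and 3.92 and 4.04 CPM in ICM_E6. In this sum the morula libraries thus differed more from each other than P2's morula cells did from preICM_E5. This did not hold for IL6R, PDGFRA and WWTR1 above. OOEP was 0.31 higher on the log2 scale in preICM_E5 when P1 was left out.

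At the step out of the inner cell mass, STAT3 fell in both lineages of E7. It went from 150 and 282 CPM in ICM_E6 to 25.4 and 26.7 CPM in Epiblast_E7 and to 14.7 and 20.5 CPM in Hypoblast_E7, with no overlap. In edgeR's quasi-likelihood test over all embryonic sums, the log2 change was -3.06 (SE 0.58, adjusted p = 0.00229) in the epiblast and -3.67 (SE 0.59, adjusted p = 1.61e-04) in the hypoblast, with 2 libraries in each group. Both comparisons use the same ICM_E6 sums. The call in the hypoblast held when each library was left out in turn (highest adjusted p = 0.0303), and the call in the epiblast was lost without P8 or P15 (highest adjusted p = 0.0649). KLF4 fell as well, by 3.56 (SE 0.91) to 2.97 and 24.2 CPM in the epiblast and by 4.20 (SE 0.93) to 4.28 and 14.5 CPM in the hypoblast (adjusted p = 0.0268 and 0.0116 in edgeR), and both calls were lost without P8 or P15. Nothing in the labels says that libraries are separate animals, so these p-values measure the spread between libraries only. The E7 lineages may also have been named from lineage genes. Calls of epiblast and hypoblast genes below therefore describe the grouping and do not bear out its names.

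In Epiblast_E7 against ICM_E6, 423 of 23045 genes (1.84%) passed, 259 higher (1.12%) and 164 lower (0.712%). None of the 12 core pluripotency genes was called, with a median log2 change of 1.30 against 0 over all genes. NANOG was at 40.6 and 32.3 CPM and then 247 and 216 CPM, a ratio of 5.96 that was not called (adjusted p = 0.212 in edgeR). FGF4, at 46.2 and 63.7 CPM in Epiblast_E7, and TDGF1, at 40.0 and 39.4 CPM, overlapped with ICM_E6. Of 13 LIF and STAT3 genes 2 fell, STAT3 and IL6ST, the latter from 312 and 271 to 57.8 and 51.6 CPM (log2 change -2.41, SE 0.50, adjusted p = 0.0055 in edgeR, lost without P8 or P9). Of 19 hypoblast genes 2 fell, GATA6 (to 31.4 and 23.7 CPM) and PDGFRA (to 13.5 and 19.7 CPM), and 2 rose, RSPO3 and LAMA1. Each of these 4 calls was lost without at least 1 library. WWTR1 fell to 25.4 and 28.5 CPM (-3.18, SE 0.56), a call lost without P8 alone (adjusted p = 0.0504 in edgeR).

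The de novo DNA methyltransferase DNMT3B, at 9.08 and 127 CPM in ICM_E6 and 610 and 605 CPM in Epiblast_E7, rose, although the ICM_E6 libraries were far apart. SPRY1 fell from 89.2 and 88.4 CPM to 3.30 and 13.9 CPM, and DUSP6, a phosphatase that acts on ERK, rose to 57.1 and 40.2 CPM (log2 changes -3.33, SE 0.85, and 4.41, SE 0.99). These FGF feedback genes thus moved in opposite directions, and the call of each was lost without P8 and also without P14. TM4SF4, with no count in ICM_E6 and 205 and 248 CPM in Epiblast_E7, was at least 604-fold higher. SERPINB10 and CD200R1, with no count in Epiblast_E7, were at least 198-fold and 105-fold lower, from 50.8 and 144 CPM and from 32.2 and 62.4 CPM. C1QA fell to 5.94 and 6.20 CPM. Of the 46 called genes that were named by size or list, 3 kept their call without each library in turn. These were GPX6, a glutathione peroxidase (0.713 and 0 CPM, then 207 and 92.6 CPM), MAP1LC3A, an autophagy gene (1.6 and 1.35 CPM, then 153 and 63.1 CPM), and SMPDL3A, a phosphodiesterase (135 and 154 CPM, then 1.65 and 1.07 CPM; log2 change -6.75, SE 0.73, adjusted p = 9.46e-08 in edgeR).

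In Hypoblast_E7 against ICM_E6, 224 genes (0.972%) passed, 168 higher (0.729%) and 56 lower (0.243%). Of 19 hypoblast genes 6 rose, GATA4, FOXA2, RSPO3, LAMA1, COL4A1 and COL4A2, and none fell, with a median log2 change of 2.87 against 0 over all genes. As Hypoblast_E7 may have been named from such genes, these calls are given as a description of the group. RSPO3, a secreted activator of WNT signalling, went from 7.13 and 1.80 CPM to 452 and 359 CPM (6.39, SE 0.90, adjusted p = 1.99e-05 in edgeR). LAMA1, with no count in ICM_E6 and 161 and 108 CPM in Hypoblast_E7, was at least 361-fold higher. GATA4 rose to 131 and 107 CPM (4.80, SE 0.89, adjusted p = 0.00111 in edgeR), a call lost without P15 (adjusted p = 0.0526). Other basement membrane genes rose too: the laminin LAMC1 went from 1.6 and 5.39 CPM to 241 and 242 CPM, and the nidogen NID1 from 0 and 1.80 CPM to 167 and 132 CPM. By contrast GATA6, PDGFRA, HNF4A and IL6R, at 182 and 187, 113 and 150, 65.3 and 69.8, and 83.9 and 116 CPM in Hypoblast_E7, were not called, and all but HNF4A overlapped with ICM_E6.

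The log2 changes of GATA6 and PDGFRA, -0.10 (SE 0.62) and -0.40 (SE 0.62), were smaller than their standard errors. SOX17, at 4.45 and 0.449 CPM and then 56.1 and 68.1 CPM, missed the threshold (adjusted p = 0.0918 in edgeR). FGFR2 fell to 0.741 and 4.16 CPM (-3.80, SE 0.94), and SPRY1, at 113 and 156 CPM, was not called. GSC fell to 8.07 and 4.80 CPM (-4.65, SE 1.21, adjusted p = 0.0419 in edgeR, lost without each library). Of the 37 called genes named by size or list, 12 kept their call without each library in turn, among them STAT3, RSPO3, LAMA1, FLRT3, GPX6, PAQR8, NID1, MME, LAMC1, COL18A1 and SMPDL3A.

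Over the 2000 genes that varied most between groups, the deposited profile of preICM_E5 was closest to preTE_E5 (Spearman's rho 0.95) and next to ICM_E6 (0.90). ICM_E6 was closest to preICM_E5, and then nearly equal to TE_E6 (0.88), Epiblast_E7 (0.88) and Hypoblast_E7 (0.87). Over 1000 genes ICM_E6 was closest to TE_E6 (0.868), with preICM_E5 next (0.860), so its nearest group depended on the genes used. These correlations are across genes, which are not independent replicates, and groups of 1 day share libraries. Counts of pig RNA per spike-in count, a relative measure of RNA per cell, had a median over cells of 55.6 in preICM_E5 and 35.9 in preTE_E5 of P2. In ICM_E6 the median was 40.8 in P14 and 24.4 in P15, below TE_E6 of the same libraries (55.8 and 35.1). The order of the lineages thus differed between P2 and the E6 libraries, and the ranges of single cells overlapped in all 3.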

How the data were processed

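The deposited count table holds raw counts of 29306 features in 1647 cells of 22 libraries, and 92 of the features, spike-ins, were left out of totals. The authors' second table gives for each group the mean over cells of log2(CPM/10 + 1), a scale found by recomputing it, since no label names it, and recorded as other where several groups share libraries. A further table of the authors holds the SD over cells on that log2 scale. The build Sscrofa11.1 and the tools UMI-tools, featureCounts 1.6.4 and STAR 2.7.1a are listed, per the submitters' processing notes, without their order or settings. Identifiers were named by the reference annotation (14800) or by matching the deposited mean profiles (967). All value columns were mapped to samples or groups.

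Cells were assigned to groups by the least-squares fit that the report describes, and the sums of at least 5 cells of a group in a library (2 for Zygote, 2C and 4C, 1 for Oocyte) were the unit of every comparison. The E7 groups were compared with ICM_E6 in a single fit of 65 embryonic sums with edgeR 4.0.16 in R 4.3.3 (filterByExpr, TMM, quasi-likelihood F-test, two-sided, Benjamini-Hochberg over all genes, threshold 0.05), tested on simulated data beforehand. ICM_E6 and TE_E6 were fitted with preICM_E5 and preTE_E5 with the library as a block. The numbers of the libraries pair these lineages because cells of both came from the same library. Comparisons with preICM_E5, planned as tests, became differences of log2(CPM + 1) because that group has 1 library, with a fold of 4 as the limit over genes with at least 100 counts in the compared sums together. Named were, per comparison and direction, the 12 largest changes where the higher group reached 50 CPM and, without a test, 100 counts (for tests, past the threshold with no overlap), the 12 genes that peaked in the inner cell mass by the largest gap, and members of 21 lists with 304 genes, of which 25 had no row of that name. Ribosomal, mitochondrial and unnamed genes were not named for size. Genes and lists were chosen with earlier results of these data known. A gene that met the rule is not reported here. Doublets were not called. Shares of cells were counted after thinning each cell to 50000 counts without replacement, leaving out shallower cells, with exact 95% intervals. Python 3.11.15, numpy 2.4.6, pandas 2.3.3, scipy 1.17.1 and matplotlib 3.10.9 were used. The alternatives were DESeq2 1.42.0, its size factors, no filter, each library left out, at least 10 cells per sum, the compared sums only, no block, a depth of 20000, and 1000 or 5000 genes for the similarity. A fit of ICM_E6 against TE_E6 over all embryonic sums without the block was added after the data were seen. Library totals ran from 7415760 to 39405309 counts. No sequence of these genes was printed, as none was among the files used here.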

Additional observations from a re-analysis of the deposited data

Results flagged for a closer look

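The lineage difference of EPHA2 had opposite signs on the 2 days. In preICM_E5 the gene was lower than in preTE_E5 of the same library, at 1.31 against 11 CPM, a difference of -2.38 on the log2 scale (-2.3819) in P2. In ICM_E6 it was higher than in TE_E6, by 5.87 in P14 (126 against 1.17 CPM) and by 5.17 in P15 (66.0 against 0.858 CPM). In preTE_E5 of the other libraries it was at 0.782 and 4.95 CPM, so the E5 difference rests on the trophectoderm cells of P2. The difference between the days was not tested, with 1 library at E5.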

How the results depend on the processing

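Epiblast_E7 against ICM_E6 gave 259 higher and 164 lower genes with edgeR, 818 and 483 with DESeq2, 560 and 305 without the filter, and 766 and 714 with at least 10 cells per sum; leaving out a library gave 55 to 150 and 15 to 82. Hypoblast_E7 gave 168 and 56, against 523 and 296, 427 and 241, and 677 and 294 under the same settings, 65 to 134 and 6 to 45 without a library, and 130 lower with the compared sums only. Of the 46 and 37 called genes that are named, 45 and 36 kept the call with DESeq2 and 11 and 17 without P8. ICM_E6 against TE_E6 had 560 higher and 902 lower with the library as replicate block, 233 and 300 with no replicate block, and 250 and 287 with no block over all embryonic sums; without P2 or P13 it had 460 to 612 and 622 to 834, and without P14 or P15 no residual degree of freedom was left.

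Without the filter, a fold of 4 gave 382 and 994 genes for ICM_E6 against preICM_E5, 300 and 877 for preICM_E5 against Morula_E4, 234 and 239 for preICM_E5 against preTE_E5, and 717 higher for the lineage gap at E6 against E5. Leaving out P14 or P15 gave 124 to 197 and 580 to 684 for the first and 436 to 640 and 582 to 792 for the last, against 465 and 665 with both. Without P1, preICM_E5 against Morula_E4 had 222 and 117, and OOEP turned to 0.31 (0.3062). With no replicate block, preICM_E5 against all preTE_E5 cells had 109 higher and 233 lower. Thinned to 20000 counts, SOX2 was in 41.2% of E5 and 54.8% of E6 cells and PDGFRA in 67.7% of E6 cells. The similarity of preICM_E5 and ICM_E6 was 0.8603 and 0.9115 over 1000 and 5000 genes. The group closest to ICM_E6 was TE_E6 over 1000 genes (0.8680) and preICM_E5 over 5000, then Hypoblast_E7 (0.9013). The cause of these shifts was not tested.

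No paired analysis was possible because preICM_E5 shares no library with ICM_E6, nor ICM_E6 with the E7 groups; preICM_E5 shares P2 with 6 morula cells. DESeq2 and fits of the compared sums were not run where preICM_E5 enters, with 1 sum. Depth limits genes under about 0.39 CPM (3 counts) in preICM_E5, the counts of P15, and shares of rare transcripts in 28 to 33 cells.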
